A study of Mus musculus with 30 samples.

Results

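NF-kB is a family of transcription factors that sit in the cytoplasm bound to inhibitors of the IkB family and move to the nucleus when signals from cytokine or pattern receptors lead to the destruction of those inhibitors. Many of the genes that NF-kB switches on encode its own subunits and brakes, so that the level of their transcripts is a common readout of the pathway. In the kidney the pathway is known for its role in the inflammatory response of tubule, vascular and immune cells to ischemia. The 10 genes described here are 4 IkB-family genes (Nfkbia, Nfkbie, Nfkbiz and Bcl3), 3 genes of DNA-binding subunits (Nfkb1, Nfkb2 and Relb) and 3 genes of enzymes that act on the pathway or on its transcripts (Tnfaip3, Birc3 and Zc3h12a). They were found by matching their symbols to Ensembl identifiers, and all 10 of the 57133 genes in each count table matched and passed the filter on low counts in every comparison.

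Whole kidneys of transgenic (TG) mice, whose genotype the labels give as Gsta2-H2BeGFP, and of wild-type (WT) mice gave 30 poly-A RNA-seq libraries. The groups were 6 TG and 6 WT libraries of males at 4 hours after nephrectomy (NX, removal of a kidney) together with ischemia-reperfusion injury (IRI, a stop and return of the blood supply), 3 TG and 3 WT libraries of males after NX alone, 3 TG and 3 WT libraries of females without surgery, and 3 TG and 3 WT libraries of males without surgery. All injured kidneys thus came from animals that also had NX. The title of the series places the raised Gsta2 expression in proximal tubule cells of males. The labels give no promoter, no age and no time for the NX kidneys, and they do not tie libraries to separate animals, so that a p-value here covers library-to-library spread only.

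The 18 NX and IRI libraries held 59574069 to 91354407 counts, those without surgery 49040915 to 66446450 (12 libraries), and each of the 10 genes had at least 116 counts in every library. Markers of kidney tubules and podocytes summed to 11183 to 17400 CPM (counts after division by the TMM-adjusted library size) in all libraries. EGFP, the reporter in the transgene, had counts in all TG libraries (1.19 to 18.8 CPM) and in none of 14 WT libraries. In the remaining WT library, labelled WT IRI replicate 1, there were 206 EGFP counts, or 2.59 CPM, where TG IRI libraries had 1.19 to 6.34 CPM. WT IRI values include this library, and the tests it enters are given again without it. Gsta2 itself, an alpha-class glutathione S-transferase, was not uniformly higher in TG. It had 61.6 to 87.2 CPM in TG IRI and 52.6 to 142 CPM in WT IRI kidneys, 72.7 to 182 CPM in TG NX and 57.6 to 79.3 CPM in WT NX kidneys, 293 to 339 CPM in TG and 301 to 354 CPM in WT females, and 38.5 to 72.3 CPM in TG and 89.2 to 105 CPM in WT males without surgery. WT NX replicate 0 held adipocyte transcripts (222 CPM summed over 5 markers, against 0 and 0.275 CPM in the other WT NX libraries).

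The promoter stretches below are shown because NF-kB is known to bind near several of the 10 genes. RefSeq promoter entries (build GRCm38.p6, 250 bases before to 50 after the start) were found for 7 of the 10 genes, and 5 of those, Nfkbia, Nfkbie, Bcl3, Nfkb2 and Tnfaip3, held the 10-base NF-kB consensus on either strand. Among 32851 RefSeq promoters 4.51% held it. The 7 genes had 10 entries, and a gene was counted if any entry matched, so the count and this share are not alike. The genes were listed as members of the pathway, so matches among them are no separate result. The entries of Birc3 and Zc3h12a held no match, and Nfkb1, Relb and Nfkbiz had no entry. The AP-1 motif TGACTCA or TGAGTCA was in the entries of Nfkbie and Tnfaip3 and in 5.2% of all promoters. A match is a string of letters and not a measured binding site. Each stretch runs 5′ to 3′ on the strand of its gene, and capitals mark the matches to the NF-kB consensus.
Nfkbia (chr12:55492598-55492897, minus strand): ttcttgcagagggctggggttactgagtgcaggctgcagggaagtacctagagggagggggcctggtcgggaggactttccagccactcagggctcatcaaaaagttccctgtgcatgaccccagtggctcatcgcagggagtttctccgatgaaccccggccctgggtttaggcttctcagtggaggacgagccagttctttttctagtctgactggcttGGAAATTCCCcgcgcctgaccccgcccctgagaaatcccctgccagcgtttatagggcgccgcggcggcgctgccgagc
Nfkbie (chr17:45555450-45555749, plus strand): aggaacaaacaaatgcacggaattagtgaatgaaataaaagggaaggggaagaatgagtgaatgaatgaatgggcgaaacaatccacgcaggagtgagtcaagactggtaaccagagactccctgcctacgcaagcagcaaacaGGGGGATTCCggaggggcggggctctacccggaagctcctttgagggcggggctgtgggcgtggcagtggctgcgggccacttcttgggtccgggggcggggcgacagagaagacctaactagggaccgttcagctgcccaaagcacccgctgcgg
Bcl3 (chr7:19822706-19823005, minus strand): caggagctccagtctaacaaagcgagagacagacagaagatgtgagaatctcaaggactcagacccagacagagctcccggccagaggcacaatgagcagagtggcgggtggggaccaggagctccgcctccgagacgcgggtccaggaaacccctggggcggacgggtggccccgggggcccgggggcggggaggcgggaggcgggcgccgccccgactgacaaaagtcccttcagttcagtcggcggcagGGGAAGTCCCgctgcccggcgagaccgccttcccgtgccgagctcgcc
Nfkb2 (chr19:46304487-46304786, plus strand): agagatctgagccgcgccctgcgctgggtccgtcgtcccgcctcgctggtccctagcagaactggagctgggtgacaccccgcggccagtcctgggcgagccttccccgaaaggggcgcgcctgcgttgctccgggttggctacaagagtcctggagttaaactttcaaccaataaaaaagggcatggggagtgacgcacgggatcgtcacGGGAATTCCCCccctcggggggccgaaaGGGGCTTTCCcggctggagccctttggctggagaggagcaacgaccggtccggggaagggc
Tnfaip3 (chr10:19015361-19015660, minus strand): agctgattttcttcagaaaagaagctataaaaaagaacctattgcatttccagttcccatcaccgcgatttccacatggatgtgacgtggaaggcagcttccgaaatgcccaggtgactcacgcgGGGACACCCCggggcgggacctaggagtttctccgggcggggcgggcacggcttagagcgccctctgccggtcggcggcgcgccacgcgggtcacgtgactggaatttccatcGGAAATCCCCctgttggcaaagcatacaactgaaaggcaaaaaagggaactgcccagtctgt
In Nfkbia the match began 29 bases before the start and in Nfkbie 106 bases before it. Bcl3 held its match at base 3 after the start. The entry of Nfkb2 shown had 4 matches, of which 3 overlapped each other in the longer run of capitals. Nfkb2 has another 2 entries, with 2 matches and 1 match. The entry of Tnfaip3 shown had 2 matches, at 125 and 12 bases before the start, and its other entry had 0. In the files' build, GRCm39, the 10 genes lie on 9 chromosomes, with Bcl3 (chr7:19542387-19556695) and Relb (chr7:19340142-19363363) on the same one and both on the minus strand.

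After IRI, 9 of the 10 genes were higher than after NX in TG kidneys and all 10 in WT kidneys, by edgeR's quasi-likelihood test with Benjamini-Hochberg adjusted p under 0.05. Among the 19264 genes tested, 16.4% were called higher in TG and 16.8% in WT. The median log2 fold change of the 10 genes was 2.20 in TG and 2.41 in WT kidneys, against -0.01 over all genes tested in either genotype. Every IRI library lay above every NX library of its genotype for all 10 genes, an arrangement found in 17.3% of all genes in TG and 14.2% in WT. In whole tissue, more cells of a type that expresses a gene and more RNA per cell cannot be told apart.

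**Figure D1:**
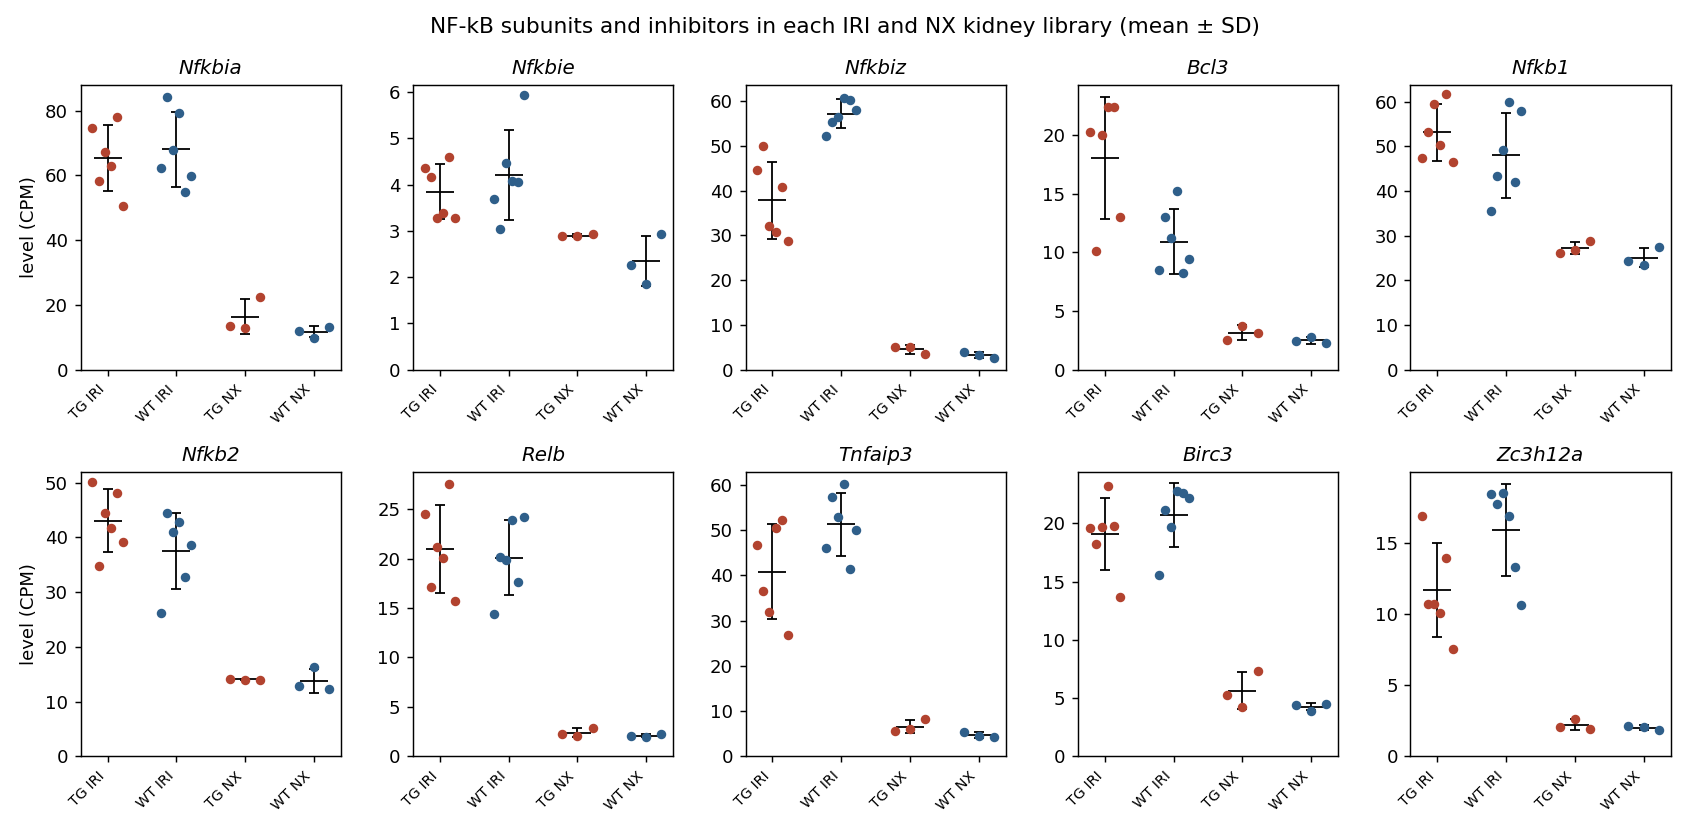
Level in CPM (vertical axes, linear from 0) of each of the 10 genes in each TG IRI, WT IRI, TG NX and WT NX library. Points are libraries, horizontal bars means and whiskers SD (n = 6 for IRI and n = 3 for NX groups). In each panel the IRI points of a genotype lie above its NX points, and for Nfkbiz the 6 TG IRI points (28.7 to 49.9 CPM) lie below the 6 WT IRI points (52.1 to 60.7 CPM).

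Among the IkB-family genes the levels of Nfkbiz differed most. Nfkbiz encodes a nuclear IkB protein that works with DNA-bound NF-kB to switch on a set of inflammatory genes. It ran from 28.7 to 49.9 CPM (median 36.5) in TG IRI kidneys, against 5.13, 4.98 and 3.44 CPM in TG NX kidneys. WT IRI kidneys had 52.1 to 60.7 CPM (median 57.2), against 4.02, 3.19 and 2.57 CPM in WT NX kidneys. All IRI values were thus far above the NX values, with log2 fold changes of 3.06 ± 0.20 (SE) in TG (8.36-fold, adjusted p = 1.06e-09) and 4.13 ± 0.21 in WT kidneys (17.5-fold, adjusted p = 2.85e-11, edgeR).

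Nfkbia encodes the main cytoplasmic inhibitor of the pathway, which is destroyed on stimulation and made again from NF-kB-driven transcripts. Its level was 50.6 to 78.0 CPM (median 65.0) in TG IRI kidneys, against 13.5, 12.9 and 22.5 CPM in TG NX kidneys. The WT IRI range was 55.0 to 84.2 CPM (median 65.0), against 11.9, 9.87 and 13.3 CPM in WT NX kidneys. The rise was 4.00-fold in TG (log2 2.0 ± 0.19, adjusted p = 2.63e-07) and 5.82-fold in WT kidneys (2.54 ± 0.20, adjusted p = 1.67e-08, edgeR), and TG NX replicate 2 stood above the other TG NX libraries.

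Bcl3 encodes a nuclear IkB protein that binds dimers of the Nfkb1 and Nfkb2 products. It ran from 10.1 to 22.4 CPM (median 20.1) in TG IRI kidneys, against 2.49, 3.76 and 3.15 CPM in TG NX kidneys. For WT the IRI kidneys had 8.25 to 15.2 CPM (median 10.3), against 2.43, 2.81 and 2.27 CPM in WT NX kidneys. It was 5.76-fold higher after IRI in TG (log2 2.53 ± 0.27, adjusted p = 8.8e-07) and 4.36-fold higher in WT kidneys (2.13 ± 0.27, adjusted p = 6.72e-06, edgeR). Of its 2475 exon bases 6.51% overlap the opposite-strand gene Gm16175, and since counting by strand is not stated, reads there cannot be assigned.

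Nfkbie, which encodes another cytoplasmic inhibitor, differed least. Its level was 3.28 to 4.60 CPM (median 3.77) in TG IRI kidneys, against 2.89, 2.88 and 2.93 CPM in TG NX kidneys. WT kidneys had 3.05 to 5.95 CPM (median 4.07) after IRI, against 2.26, 1.86 and 2.94 CPM in WT NX kidneys. The groups came close without overlap, and the gene was not called in TG (log2 0.41 ± 0.20, adjusted p = 0.137) but was in WT kidneys (0.84 ± 0.20, adjusted p = 0.00393, edgeR). The difference between these changes was itself not called (-0.43 ± 0.28, adjusted p = 0.656, edgeR).

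Of the subunit genes, Relb, whose product pairs with that of Nfkb2 in the slower, non-canonical arm of the pathway, rose most. It had 15.7 to 27.5 CPM (median 20.7) in TG IRI kidneys, against 2.29, 2.03 and 2.88 CPM in TG NX kidneys. WT IRI kidneys had 14.4 to 24.2 CPM (median 20.1), against 2.09, 1.96 and 2.25 CPM in WT NX kidneys. No IRI value overlapped an NX value, and the rise was 8.74-fold in TG (log2 3.13 ± 0.21, adjusted p = 1.85e-09) and 9.55-fold in WT kidneys (3.26 ± 0.21, adjusted p = 1.12e-09, edgeR), and the difference of these changes was -0.13 with an interval of ± 2 SE from -0.65 to 0.39.

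Nfkb2, which encodes a precursor that holds Relb in the cytoplasm until it is processed to a DNA-binding subunit, rose less. Its level was 34.8 to 50.1 CPM (median 43.1) in TG IRI kidneys, against 14.2, 14 and 14 CPM in TG NX kidneys. In WT IRI kidneys it was 26.2 to 44.4 CPM (median 39.8), against 12.8, 16.3 and 12.3 CPM in WT NX kidneys. The log2 fold change was 1.61 ± 0.16 in TG (adjusted p = 2.79e-07) and 1.44 ± 0.16 in WT kidneys (adjusted p = 1.05e-06, edgeR). Of the 4584 exon bases of Nfkb2 20.5% overlap the opposite-strand genes Psd and AC114539.1.

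Nfkb1 encodes the precursor of the DNA-binding subunit that pairs with the Rela product in the canonical arm. It stood at 46.5 to 61.8 CPM (median 51.7) in TG IRI kidneys, against 26.2, 26.8 and 28.8 CPM in TG NX kidneys. WT IRI kidneys had 35.6 to 60.0 CPM (median 46.2), against 24.3, 23.5 and 27.5 CPM in WT NX kidneys. Its rise was under 2-fold in both genotypes, with log2 fold changes of 0.96 ± 0.14 in TG (adjusted p = 3.99e-05) and 0.94 ± 0.14 in WT kidneys (adjusted p = 5.69e-05, edgeR).

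All 3 enzyme genes rose in both genotypes. Tnfaip3 encodes a ubiquitin-editing enzyme that shuts down signalling from cytokine receptors to the pathway. It ran from 26.8 to 52.2 CPM (median 41.7) in TG IRI kidneys, against 5.56, 5.97 and 8.22 CPM in TG NX kidneys. WT kidneys held 41.5 to 60.1 CPM (median 51.5) after IRI, against 5.38, 4.43 and 4.25 CPM in WT NX kidneys. This was a 6.19-fold rise in TG (log2 2.63 ± 0.21, adjusted p = 2.56e-08) and a 10.9-fold rise in WT kidneys (3.45 ± 0.22, adjusted p = 1.11e-09, edgeR).

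Zc3h12a encodes an RNA-cutting enzyme that destroys transcripts of inflammatory genes. It ran from 7.51 to 16.9 CPM (median 10.7) in TG IRI kidneys, against 2.07, 2.66 and 1.93 CPM in TG NX kidneys. The WT kidneys had 10.6 to 18.5 CPM (median 17.3) after IRI, against 2.16, 2.05 and 1.87 CPM in WT NX kidneys. The NX values were close together and the IRI values spread widely, with log2 fold changes of 2.40 ± 0.24 in TG (adjusted p = 3.8e-07) and 2.97 ± 0.25 in WT kidneys (adjusted p = 3.38e-08, edgeR).

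Birc3 encodes a ubiquitin ligase of the receptor complexes that feed the pathway. Its level was 13.7 to 23.2 CPM (median 19.7) in TG IRI kidneys, against 5.24, 4.27 and 7.36 CPM in TG NX kidneys. In WT IRI kidneys it was 15.6 to 22.8 CPM (median 21.7), against 4.39, 3.93 and 4.49 CPM in WT NX kidneys. Birc3 was thus 3.39-fold higher in TG (log2 1.76 ± 0.18, adjusted p = 4.14e-07) and 4.84-fold higher in WT kidneys (2.28 ± 0.18, adjusted p = 2.11e-08, edgeR).

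**Figure D2:**
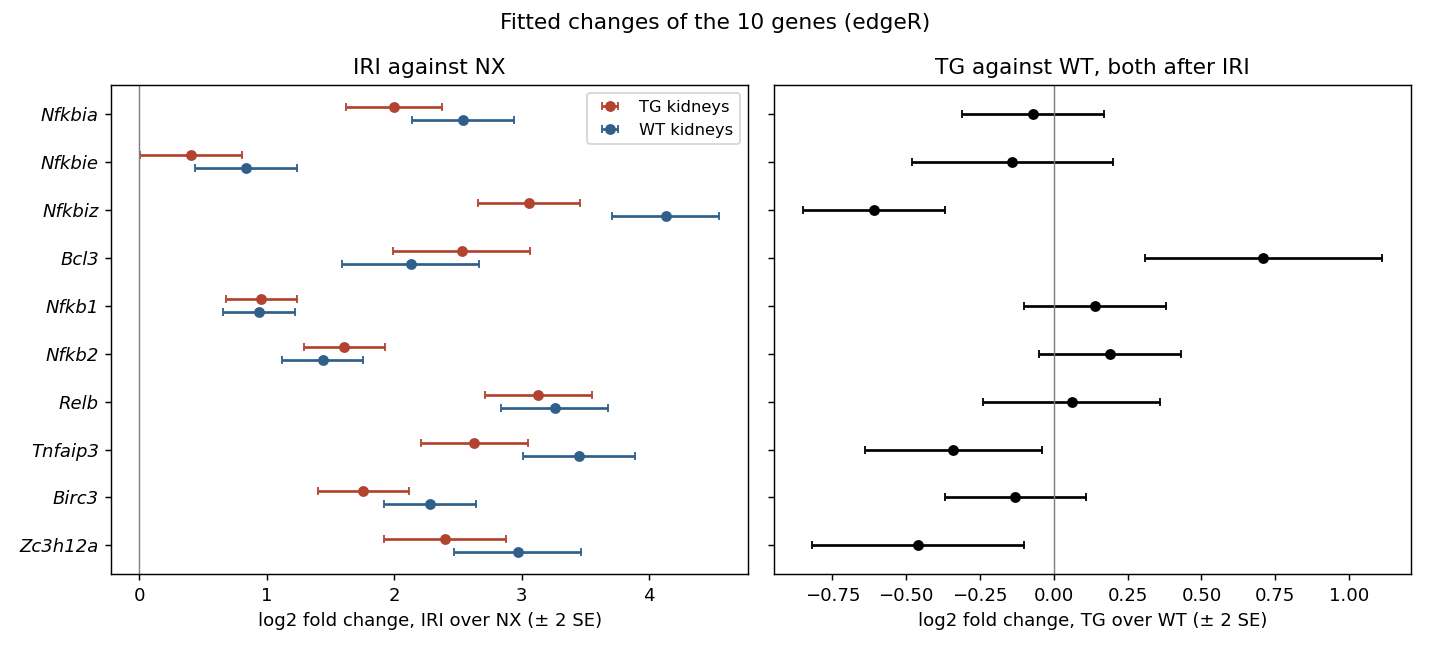
Log2 fold changes fitted with edgeR, with whiskers of ± 2 SE. Left, IRI over NX in TG and WT kidneys (n = 6 IRI and 3 NX libraries a genotype), where the values run from 0.41 for Nfkbie in TG to 4.13 for Nfkbiz in WT kidneys. Right, TG over WT among IRI kidneys (n = 6 each), where the values run from -0.61 for Nfkbiz to 0.71 for Bcl3.

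Markers of neutrophils and red cells were higher after IRI beside these genes, while those of macrophages and monocytes were mixed. The 9 neutrophil markers summed to 5.83 to 43.3 CPM in TG IRI and 26.1 to 98.6 CPM in WT IRI kidneys, against 0.496 to 0.933 CPM in TG NX and 0.244 to 0.989 CPM in WT NX kidneys. Camp was at 0 in all WT IRI libraries, and the 6 of 9 markers that could be tested were called higher after IRI in both genotypes. Macrophage and monocyte markers summed to 99.4 to 117 CPM in TG IRI and 87.9 to 136 CPM in WT IRI kidneys, against 79.4 to 140 CPM in TG NX and 99.4 to 115 CPM in WT NX kidneys. Of these 10 markers 1 was called higher and 1 lower in TG, and 2 higher and 1 lower in WT kidneys. Of 6 endothelium markers 1 was called higher and 1 lower in TG, and 2 higher and 0 lower in WT kidneys. Red cell transcripts summed to 28.1 to 146 CPM in TG IRI and 107 to 1268 CPM in WT IRI kidneys, against 3.46 to 18.2 CPM in TG NX and 34.8 to 117 CPM in WT NX kidneys. The part of these cells in the rise of the 10 genes was not tested. Without the library labelled WT IRI replicate 1 all 10 genes were still called higher in WT kidneys, and likewise with WT NX replicate 0 left out as well.

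The other genes of the pathway were counted in 6 lists of 96 genes, of which 91 were tested. In TG kidneys 46 rose and 6 fell after IRI, and in WT kidneys 52 rose and 4 fell. Over all genes tested, 16.4% were called higher and 13% lower in TG, and 16.8% higher and 14.1% lower in WT kidneys. Their median log2 fold change was 0.64 in TG and 0.57 in WT kidneys, against -0.01 over all genes in both. Genes are named here by the smallest p in WT kidneys within each list.

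The ligands rose in part, 3 of 10 tested in TG and 4 in WT kidneys. Tnf, the founding cytokine of the pathway, averaged 0.408 ± 0.261 CPM in TG IRI and 0.985 ± 0.352 CPM in WT IRI kidneys (SD, n = 6), against 0.0640 ± 0.0846 in TG NX and 0.0416 ± 0.0471 CPM in WT NX kidneys (n = 3), where it had 14 counts in all in TG NX and 8 in WT NX libraries. Il1b, an interleukin made by activated myeloid cells, averaged 3.60 ± 3.09 CPM in TG IRI and 11.1 ± 4.55 CPM in WT IRI kidneys, against 0.556 ± 0.0481 in TG NX and 0.342 ± 0.403 CPM in WT NX kidneys. Tnf was thus at low levels throughout and Il1b in NX kidneys, and their log2 fold changes had wide errors. For Tnf they were 2.67 ± 0.83 in TG and 4.51 ± 0.92 in WT kidneys. For Il1b they were 2.69 ± 0.65 in TG and 5.01 ± 0.74 in WT kidneys. Il33, an alarm cytokine held in the nucleus, rose by 1.27 ± 0.19 in TG and 0.72 ± 0.18 in WT kidneys on the log2 scale.

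Of the receptors 7 of 11 tested rose in both genotypes, and 1 fell, in TG kidneys. Tnfrsf12a, the receptor of the TWEAK cytokine, averaged 314 ± 41.9 CPM in TG IRI and 258 ± 71.4 CPM in WT IRI kidneys, against 13.6 ± 1.90 in TG NX and 15.8 ± 1.56 CPM in WT NX kidneys. Tlr4, a pattern receptor, rose by 1.35 ± 0.20 in TG and 2.05 ± 0.21 in WT kidneys on the log2 scale, and Il1r1, the interleukin-1 receptor, by 1.25 ± 0.16 in TG and 1.45 ± 0.16 in WT kidneys. Adaptors, ubiquitin ligases and kinases were mixed, with 8 of 28 up and 4 down in TG and 12 up and 3 down in WT kidneys. Map3k14, the kinase of the non-canonical arm, rose by 1.47 ± 0.16 in TG and 1.5 ± 0.16 in WT kidneys. Map3k8 rose by 1.89 ± 0.31 in TG and 2.78 ± 0.33 in WT kidneys, and Irak2, a kinase below interleukin-1 and pattern receptors, by 0.73 ± 0.13 in TG and 0.68 ± 0.13 in WT kidneys (log2 ± SE, edgeR).

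Both remaining subunit genes rose. Rela, the canonical activating subunit, averaged 107 ± 4.83 CPM in TG IRI and 97.1 ± 13.4 CPM in WT IRI kidneys, against 27.4 ± 1.70 in TG NX and 31.8 ± 3.5 CPM in WT NX kidneys. Rel averaged 10.8 ± 2.44 CPM in TG IRI and 15.4 ± 1.90 CPM in WT IRI kidneys, against 1.64 ± 0.475 in TG NX and 1.58 ± 0.562 CPM in WT NX kidneys. Among 16 other inhibitors 6 rose in TG and 8 in WT kidneys. They include Nfkbid, a nuclear IkB protein (log2 2.64 ± 0.45 in TG and 3.11 ± 0.46 in WT kidneys), Tnip2 (1.32 ± 0.20 in TG and 1.21 ± 0.20 in WT kidneys) and Nfkbib, a cytoplasmic IkB protein (0.79 ± 0.12 in TG and 0.63 ± 0.12 in WT kidneys).

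Of the known target genes 20 of 24 tested rose in TG and 19 in WT kidneys, with medians of 2.04 in TG and 2.36 in WT kidneys on the log2 scale. Ccl2, a chemokine that draws monocytes, rose by 5.66 ± 0.44 in TG and 5.06 ± 0.43 in WT kidneys. Gadd45b, a stress-response gene, rose by 3.99 ± 0.24 in TG and 5.02 ± 0.25 in WT kidneys, and Vcam1, an adhesion molecule, by 1.79 ± 0.16 in TG and 2.32 ± 0.17 in WT kidneys. Sod2, the mitochondrial superoxide dismutase, was the 1 target called lower in both genotypes (301 ± 12.1 CPM in TG IRI and 297 ± 9.58 CPM in WT IRI kidneys, against 361 ± 16.4 in TG NX and 382 ± 15.5 CPM in WT NX kidneys), and it is named because of that count.

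**Figure D3:**
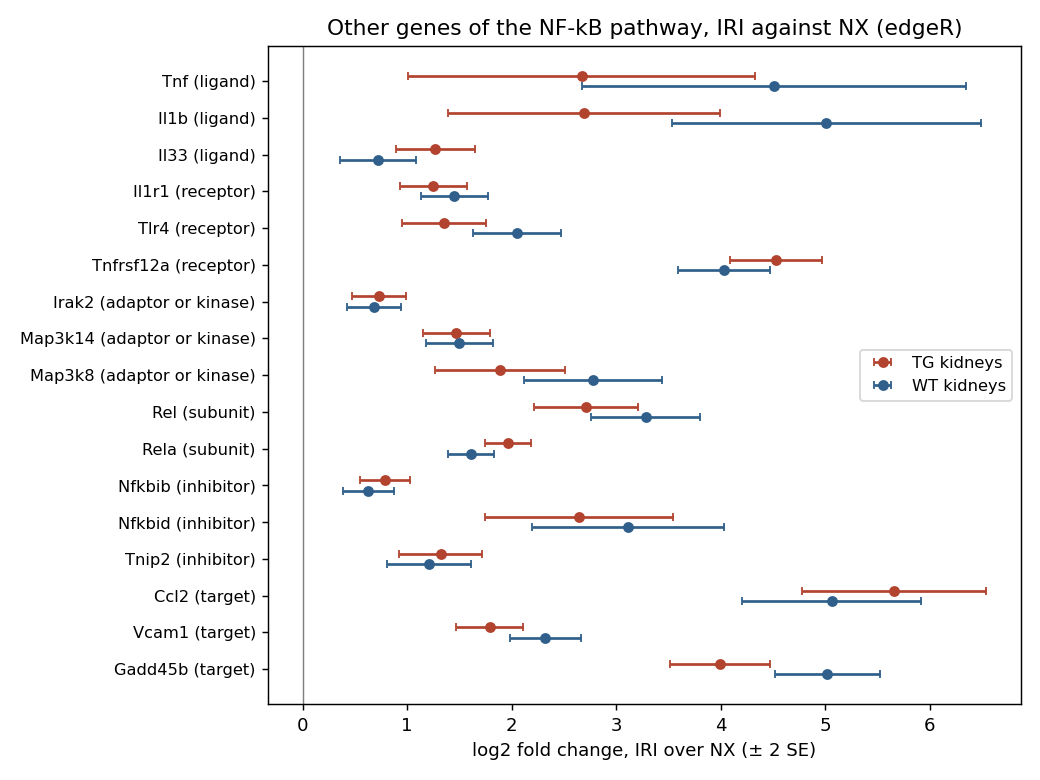
Log2 fold change of IRI over NX (horizontal axis, with ± 2 SE, edgeR) for the 17 genes of the 6 pathway lists named by their p in TG and WT kidneys (n = 6 IRI and 3 NX libraries a genotype). Sod2, which fell, is not plotted. All plotted values are above 0, from 0.63 for Nfkbib in WT kidneys to 5.66 for Ccl2 in TG kidneys. The genes were picked by the smallest p of this comparison in WT kidneys, so their shared sign is no separate result.

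Between the genotypes after IRI, none of the 10 genes passed the adjusted threshold in edgeR, where 12 of 17111 genes did (0.0701%). At an unadjusted p under 0.05 there were 4 of 10, against 14.1% of all genes. The tool DESeq2 called 2 of the 10, Nfkbiz lower and Bcl3 higher in TG kidneys, and 346 of all genes (2.02%). The estimates ran from -0.61 to 0.71 on the log2 scale, 4 above and 6 below 0, with a median of -0.10.

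Nfkbiz was the gene whose groups did not overlap, lower in TG, an arrangement shared by 0.468% of all genes. It measured 44.5, 49.9, 32.0, 30.7, 40.9 and 28.7 CPM in TG IRI replicates 0 to 5, against 52.1, 55.4, 56.4, 60.7, 60.3 and 58.1 CPM in WT IRI replicates 0 to 5. The log2 fold change was -0.61 ± 0.12 (adjusted p = 0.0895, edgeR). Over 18 alternatives the adjusted p ran from 0.00142 with DESeq2 to 0.204, and 3 of them passed the threshold. These were DESeq2, no filter on low counts (0.0402) and leaving out TG IRI replicate 1 (0.0463). Without the library labelled WT IRI replicate 1 the value was -0.62 (adjusted p = 0.104, edgeR).

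Bcl3 measured 20.2, 10.1, 20, 22.4, 22.4 and 13 CPM in TG IRI replicates 0 to 5, against 8.52, 13, 11.2, 15.2, 8.25 and 9.40 CPM in WT IRI replicates 0 to 5. TG replicates 1 and 5 lay within the WT range and the other 4 above it. Its log2 fold change was 0.71 ± 0.20 (adjusted p = 0.179, edgeR), with adjusted p from 0.0308 with DESeq2 to 0.356 over the alternatives. Zc3h12a measured 16.9, 10.7, 10.7, 10.1, 13.9 and 7.51 CPM in the TG libraries in the same order, against 18.4, 17.7, 18.5, 16.9, 13.3 and 10.6 CPM in the WT libraries. Tnfaip3 measured 46.7, 36.6, 31.8, 50.4, 52.2 and 26.8 CPM in the TG libraries, against 46.0, 57.4, 53.0, 60.1, 41.5 and 50.0 CPM in the WT libraries. Both overlapped between genotypes, with estimates of -0.46 ± 0.18 for Zc3h12a (adjusted p = 0.296) and -0.34 ± 0.15 for Tnfaip3 (adjusted p = 0.34, edgeR).

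The other 6 genes overlapped widely between genotypes after IRI. Nfkbia measured 74.7, 58.4, 67.2, 62.8, 78.0 and 50.6 CPM in TG IRI replicates 0 to 5, against 62.2, 84.2, 67.9, 79.3, 55.0 and 59.7 CPM in WT IRI replicates 0 to 5, a difference of -0.07 with an interval of ± 2 SE from -0.30 to 0.17. Nfkbie measured 4.36, 4.17, 3.29, 3.38, 4.60 and 3.28 CPM in the TG libraries, against 3.68, 3.05, 4.46, 4.07, 4.06 and 5.95 CPM in the WT libraries (interval -0.47 to 0.19). Birc3 measured 19.6, 18.2, 19.7, 23.2, 19.8 and 13.7 CPM in the TG libraries, against 15.6, 21.1, 19.7, 22.8, 22.6 and 22.2 CPM in the WT libraries (interval -0.37 to 0.11). None of these intervals leaves room for a change of 2-fold, a log2 value of 1.

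The subunit genes were the ones with estimates just above 0. Nfkb1 measured 47.4, 53.1, 59.4, 50.3, 61.8 and 46.5 CPM in TG IRI replicates 0 to 5, against 35.6, 43.3, 49.2, 60.0, 42.0 and 57.8 CPM in WT IRI replicates 0 to 5 (interval -0.10 to 0.38). Nfkb2 measured 50.1, 34.8, 44.5, 41.8, 48.1 and 39.1 CPM in the TG libraries, against 26.2, 44.4, 41.0, 42.8, 32.7 and 38.7 CPM in the WT libraries (interval -0.06 to 0.43). Relb measured 24.5, 17.1, 21.2, 20.1, 27.5 and 15.7 CPM in the TG libraries, against 14.4, 20.2, 19.9, 23.9, 17.6 and 24.2 CPM in the WT libraries (interval -0.24 to 0.36). The spread within a genotype was larger than the gap between the means for all 3.

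The library labelled WT IRI replicate 1 was the highest of the WT IRI libraries for Nfkbia and Nfkb2 and the lowest for Nfkbie. Without it the WT IRI range was 55.0 to 79.3 CPM for Nfkbia, 26.2 to 42.8 CPM for Nfkb2 and 3.68 to 5.95 CPM for Nfkbie. The log2 difference between TG and WT after IRI was then 0.77 for Bcl3, 0.24 for Nfkb2, 0.11 for Nfkb1, 0.06 for Relb and 0.00 for Nfkbia. It was -0.12 for Birc3, -0.22 for Nfkbie, -0.31 for Tnfaip3 and -0.42 for Zc3h12a, and none of the 10 was called (edgeR). For IRI against NX in WT kidneys the values without it ran from 0.92 for Nfkbie to 4.14 for Nfkbiz.

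**Figure D4:**
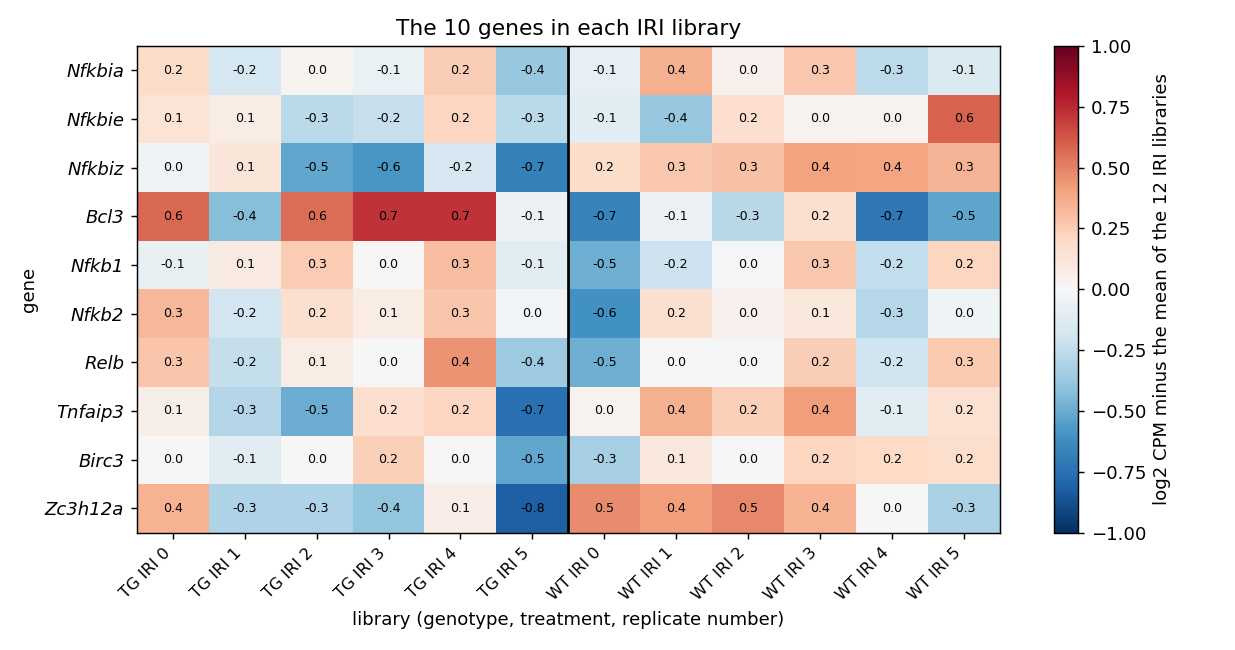
Log2 CPM of each of the 10 genes (rows) in each of the 12 IRI libraries (columns, TG left of the black line) minus the gene's mean over the 12. Red is above and blue below that mean. TG IRI replicate 5 is below the mean for all 10 genes and WT IRI replicate 3 is above it for all 10, and Nfkbiz is above the mean in all 6 WT libraries.

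The genes moved in part by library. Relative to each gene's mean log2 CPM over the 12 IRI libraries, the median over the 10 genes was 0.23 in TG IRI replicate 4 and -0.37 in TG IRI replicate 5, the highest and lowest of the TG libraries. TG IRI replicate 5 was the lowest TG library for 8 of the 10 genes, and TG IRI replicate 4 was the highest for 5. Among WT libraries the median was 0.26 in replicate 3, which was the highest for 5 genes, and -0.22 in replicate 0, the lowest for 5. The neutrophil marker sum was 43.3 CPM in TG IRI replicate 4 and 5.83 CPM in TG IRI replicate 5, the highest and lowest of the TG libraries too. TG IRI replicate 3 had a similar sum to replicate 5, 6.14 CPM, with a median over the genes of 0.00. In the WT libraries the marker sum was 42.2 CPM in replicate 3 and 28.7 CPM in replicate 0. The highest sum, 98.6 CPM, stood in WT IRI replicate 5, whose median over the genes was 0.17. The part of these cells in the spread was not tested.

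The TG and WT responses to injury were also set against each other by their interaction, in which no gene of 19264 passed the threshold in edgeR (0.00% called). At an unadjusted p under 0.05 there were 4 of the 10 genes, against 9.59% of all genes, and DESeq2 called 1, Nfkbiz, as it did 0.187% of all genes. The Nfkbiz response was smaller in TG (-1.07 ± 0.24 on the log2 scale, adjusted p = 0.376 by edgeR and 0.0179 by DESeq2). The other 3 were Tnfaip3 (-0.82 ± 0.27, adjusted p = 0.398), Birc3 (-0.52 ± 0.23, adjusted p = 0.495) and Nfkbia (-0.54 ± 0.25, adjusted p = 0.504) by edgeR. Without TG NX replicate 2 the interaction was -0.28 for Birc3 and -0.24 for Nfkbia. Without the library labelled WT IRI replicate 1 Nfkbiz had -1.08 (adjusted p = 0.351, edgeR). With WT NX replicate 0 left out as well, a choice made after seeing the data, it had -1.25 (adjusted p = 0.201, edgeR). The interaction shares its NX libraries with the changes given above.

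In NX kidneys none of the 10 genes was called between genotypes (2 of 17100 genes were, 0.0117%), and 1 of 10 was under an unadjusted p of 0.05, against 6.77% of all genes. DESeq2 called none of the 10 either. All 10 estimates were above 0, with a median of 0.31 against -0.00 over all genes. The 10 genes share the same 6 libraries, so their common sign is no set of independent results. The sizes also rested in part on single libraries, and for Nfkb2 and Zc3h12a the sign did too. Without TG NX replicate 2 the estimate was 0.17 for Nfkbia (0.48 with it), 0.16 for Birc3 (0.39 with it), 0.30 for Tnfaip3 (0.49 with it) and 0.04 for Relb (0.19 with it). Leaving out 1 library at a time gave values down to -0.06 for Nfkb2 and -0.02 for Zc3h12a. For the other genes no such value fell below 0. Such runs gave 0.15 to 0.49 for Nfkbie, 0.17 to 0.46 for Bcl3, 0.32 to 0.64 for Nfkbiz and 0.07 to 0.19 for Nfkb1. Tnfaip3 was the gene whose groups did not overlap, higher in TG, as were 6.62% of all genes. It had 5.56, 5.97 and 8.22 CPM in TG NX against 5.38, 4.43 and 4.25 CPM in WT NX kidneys, a log2 difference of 0.49 ± 0.20 (adjusted p = 0.73, edgeR).

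Without surgery, no gene of the 10 was called between genotypes in females (0.0418% of all genes were) or in males (0.00523%) by edgeR or DESeq2. At an unadjusted p under 0.05 there were 0 of 10 in females (9.09% of all genes) and 1 of 10, Bcl3, in males (5.22%). Nfkb2 in males had 16.4, 17.3 and 16.1 CPM in TG against 18.9, 17.9 and 17.6 CPM in WT kidneys, and Zc3h12a in females had 3.34, 3.71 and 3.46 CPM in TG against 4.10, 4.99 and 4.32 CPM in WT kidneys. These 2 did not overlap and were lower in TG, as were 4.71% of all genes in males and 8.0% in females, with adjusted p of 0.922 for Nfkb2 and 0.72 for Zc3h12a (edgeR).

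Between the sexes without surgery 2 of the 10 genes were called in each genotype, against 21.2% of all genes in TG and 21.3% in WT kidneys. Nfkbiz was higher in females in both. In TG it had 7.07, 8.67 and 10.6 CPM in females and 5.65, 6.11 and 5.71 CPM in males (log2 0.59 ± 0.16, adjusted p = 0.0184, edgeR). In WT it had 9.89, 9.22 and 8.96 CPM in females and 5.35, 7.10 and 5.38 CPM in males (0.65 ± 0.16, adjusted p = 0.0109, edgeR). No female value overlapped a male one. Such a gap, with females higher, was seen for 3 of the 10 genes in TG (Nfkbiz, Nfkb1 and Nfkb2, against 19.8% of all genes) and 2 in WT kidneys (Nfkbiz and Nfkb1, against 18.5%). The adjusted p was over the threshold without WT male replicate 0 (0.0501), without TG female replicate 2 (0.09), without TG male replicate 0 (0.0593) and without TG male replicate 2 (0.0582).

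Bcl3 was lower in TG females, at 2.80, 3.56 and 2.81 CPM, than in TG males, at 6.30, 5.06 and 3.82 CPM (-0.73 ± 0.22, adjusted p = 0.0306, edgeR), without overlap, as were 18.9% of all genes. In WT kidneys it had 3.43, 4.24 and 3.52 CPM in females and 4.28, 3.86 and 2.79 CPM in males (0.03 ± 0.22, adjusted p = 0.94, edgeR). The difference between the genotypes in this was not tested. Nfkb1 was higher in WT females, at 37.3, 47.7 and 43.5 CPM, than in WT males, at 33.6, 37.1 and 35.5 CPM (0.27 ± 0.09, adjusted p = 0.0386, edgeR). Both calls were lost without any of several libraries. The Bcl3 call was lost without TG female replicate 0 (0.0895) or 2 (0.0971) and without TG male replicate 0 (0.134) or 1 (0.0622). For Nfkb1 this was so without WT female replicate 1 (0.143) or 2 (0.108) and without WT male replicate 0 (0.136), 1 (0.0509) or 2 (0.0792).

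Levels between genes were compared per length, as TPM, which scales counts by exon length and to a fixed sum per library. The NX and IRI table and the no-surgery table were scaled separately, so levels across them were set side by side without a test. Nfkbia had the highest TPM of the 10 genes in all 8 groups. It averaged 111 ± 15.8 TPM in TG IRI kidneys (SD) and ran from 84.5 to 140 TPM in WT IRI kidneys. The other means were 29.5 ± 9.84 in TG NX, 19 ± 2.78 in WT NX, 67.1 ± 19.4 in TG females, 85.5 ± 20.7 in WT females, 59.8 ± 29.5 in TG males and 55.2 ± 25.3 TPM in WT males without surgery (SD). It made up 41.4% to 61.2% of the summed TPM of the 10 genes in each group.

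Below Nfkbia the order changed with injury. In IRI kidneys Nfkb2 (25.7 ± 3.22 TPM in TG and 21.6 ± 4.27 in WT), Nfkbiz (20.6 ± 4.35 in TG and 29.9 ± 1.80 in WT) and, in TG, Bcl3 (19.9 ± 5.64, against 11.7 ± 3.31 in WT) came next. Nfkbie was last, at 3.45 ± 0.481 TPM in TG IRI and 3.61 ± 0.678 TPM in WT IRI kidneys. In NX kidneys Nfkbiz was eighth of the 10 genes in both genotypes, at 2.62 ± 0.537 TPM in TG and 1.7 ± 0.341 TPM in WT. Nfkbiz and Bcl3 in TG IRI kidneys differed by less than their SDs. The summed TPM of the 10 genes was 244 in TG IRI and 247 in WT IRI kidneys. In NX kidneys it was 64.1 in TG and 45.9 in WT. Without surgery it was 120 in TG and 140 in WT females, and 102 in TG and 98.9 in WT males. TPM carries no TMM adjustment, so the sums of different groups were set side by side without a test.

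**Figure D5:**
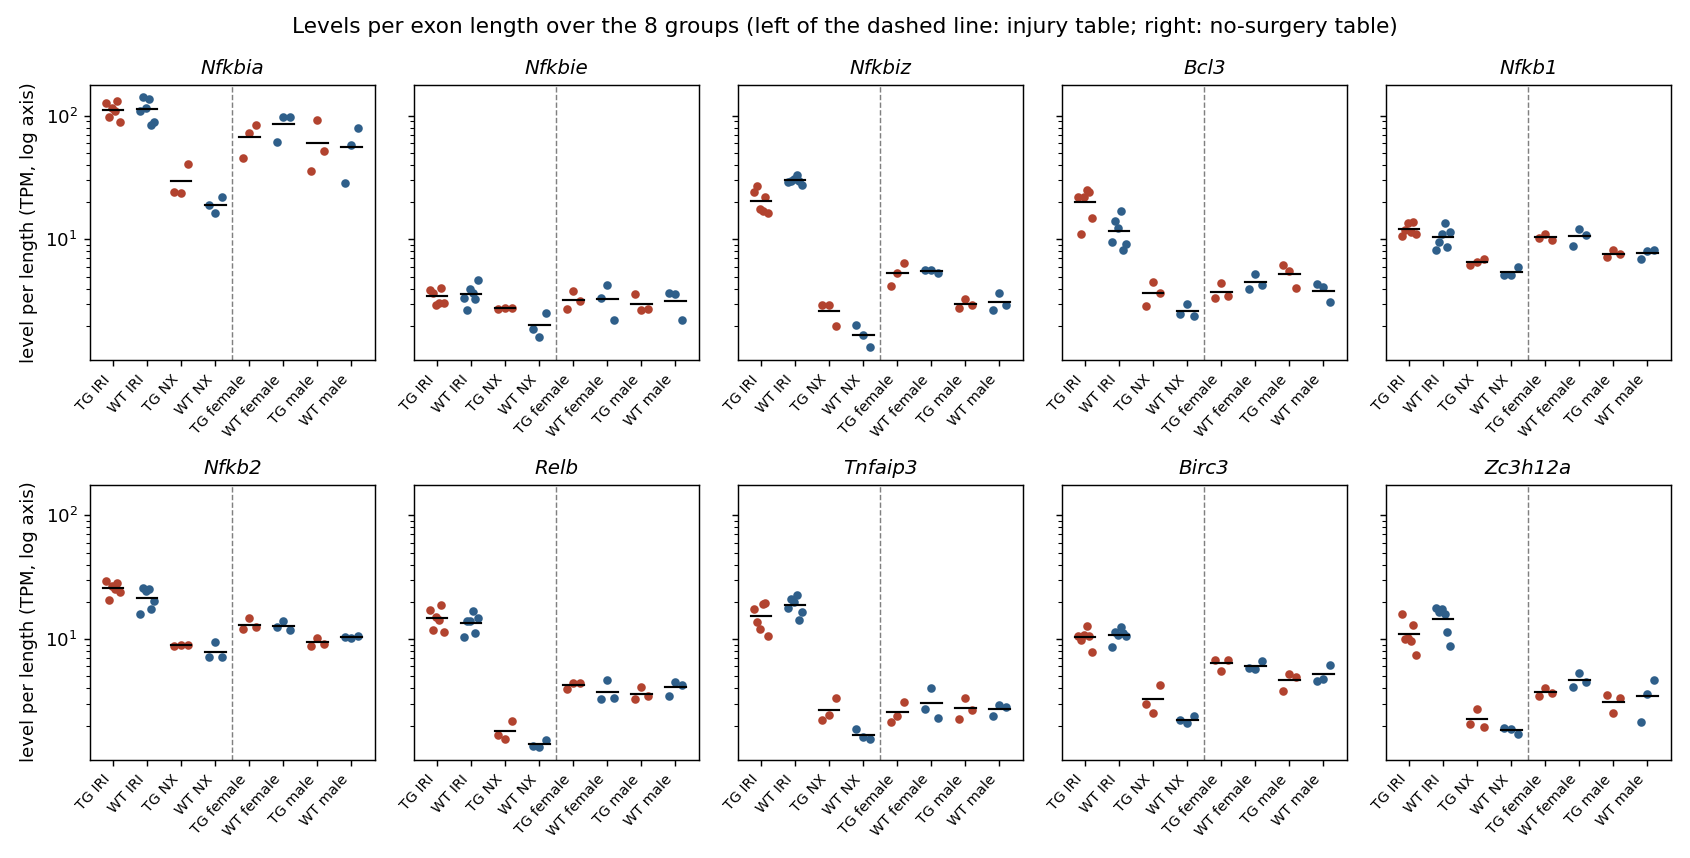
Level in TPM (vertical axes, log scale) of the 10 genes in every library of the 8 groups. Points are libraries, bars are group means, and the dashed line parts the NX and IRI table from the no-surgery table. Nfkbia is highest in every group, and for each gene the NX means lie below the means of males without surgery of the same genotype.

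In the NX and IRI table mean CPM ran from WT IRI through TG IRI and TG NX to WT NX for 6 genes. The other 4 (Bcl3, Nfkb1, Nfkb2 and Relb) had TG IRI ahead of WT IRI. Neighbouring groups did not overlap in CPM at the step between IRI and NX, in all 10 genes. Otherwise they overlapped, apart from the IRI groups of Nfkbiz and the NX groups of Tnfaip3. Among the no-surgery groups no order of mean CPM was shared by more than 2 genes. Neighbours there overlapped in CPM except for Nfkb1 (TG females above TG males) and Nfkb2 (TG males below WT males). In TPM, as plotted, the orders and overlaps were not all the same. For all 10 genes the mean TPM in NX kidneys was below that in males without surgery, in both genotypes. Relb stood at 1.8 ± 0.323 TPM in TG NX and 1.41 ± 0.104 TPM in WT NX kidneys, beside 3.61 ± 0.450 TPM in TG males and 4.07 ± 0.545 TPM in WT males without surgery. Surgery and the table cannot be told apart in this.

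The genes with the most similar profiles were found by the root mean square difference of log2 CPM over the 8 group means, each centred on its own mean, among 17860 genes. These means come from both tables, which were scaled separately, so a gap between the tables enters the distance too. For Nfkbia they were Litaf (0.114), a gene of endosomal sorting first found as induced by bacterial lipopolysaccharide, S1pr1 (0.143), a lipid receptor of endothelium and lymphocytes, and Anxa1 (0.164), an anti-inflammatory phospholipid-binding protein. For Nfkbiz they were Tmem145 (0.211), Arid5a (0.221), which binds and stabilises inflammatory transcripts, and Btg2 (0.225), an early growth-arrest gene. Tmem145 was at low levels, 1.25 ± 0.887 CPM in TG IRI and 1.73 ± 1.36 CPM in WT IRI kidneys. For Tnfaip3 they were Plk2 (0.146), a stress-induced kinase, Gadd45a (0.249), a DNA-damage response gene, and Emp1 (0.25), a membrane protein.

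The IRI levels of some of these genes in TG and WT are given as a description, since both entered the search for similar profiles. Arid5a averaged 17.7 ± 3.0 CPM in TG IRI and 27.0 ± 4.99 CPM in WT IRI kidneys, Btg2 156 ± 32.7 CPM in TG IRI and 239 ± 23.4 CPM in WT IRI kidneys, and Plk2 56.1 ± 9.24 CPM in TG IRI and 85.3 ± 7.87 CPM in WT IRI kidneys. Litaf averaged 78.6 ± 6.14 CPM in TG IRI and 79.4 ± 6.55 CPM in WT IRI kidneys. Among the 10 genes themselves the nearest profile to that of Nfkbia was Birc3 (0.209), and Nfkbiz and Tnfaip3 were 0.392 apart.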

How the data were processed

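The authors deposited raw counts of reads per gene for 30 libraries in 2 tables, made, per the submitters' processing notes, with fastp 0.23.2, STAR 2.7.0 and featureCounts 2.0.3 on mouse build GRCm39 with an Ensembl annotation and EGFP. The command in the file headers has its option names replaced by an error text, so strand and read-pair settings could not be read from it, and halved counts were tried as an alternative. Of counts of at least 10, 37.8% to 41.9% were odd in the NX and IRI libraries. Without surgery 37.3% to 41.9% were odd, and the cause was not tested. One column of counts in each deposited table is entered under an other unit because of the header's layout, and it was used as counts like the rest.

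The counts were tested as deposited with edgeR 4.0.16 in R 4.3.3 (quasi-likelihood test, TMM scaling, filterByExpr, Benjamini-Hochberg adjustment over all genes tested, threshold 0.05). The SE is the log2 fold change divided by the root of its F statistic. The fit of IRI against NX used all 18 libraries of its table, the sex comparisons and genotype comparisons without surgery all 12 of theirs, and the genotype comparisons after IRI and after NX only their own groups. Each table was scaled by itself. An SD is the spread between the 3 to 6 libraries of a group. An SE comes from the fit, which estimates the spread of a gene over all the libraries in it. Symbols came from GENCODE names for 51881 of 57133 identifiers (90.8%), and promoters from RefSeq. Alternatives were DESeq2 1.42.0, other size factors, no count filter, other sets of libraries, a replicate block and leaving out each library.

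The 10 genes and the pathway and marker lists were chosen with earlier results of these data known. Named were all 10 genes, up to 3 genes a pathway list with the smallest p in WT kidneys, and the 3 genes nearest in profile to Nfkbia, Nfkbiz and Tnfaip3. Samples with the same replicate number were not taken as pairs. Simulated counts were used to test the fits.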

Additional observations from a re-analysis of the deposited data

Results flagged for a closer look

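EGFP, which is outside the main measurement, had 206 counts in the library labelled WT IRI replicate 1 and 0 in the other 14 WT libraries. Without that library 10 of the 10 genes were still called higher after IRI in WT kidneys and 0 between TG and WT kidneys after IRI (edgeR). Dixon's test was run on groups of 4 to 10 libraries, which are the TG IRI and WT IRI groups, for each of the 10 genes. No value stood apart (0 of 20 tested). The groups of 3 libraries were not tested in this way.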

How the results depend on the processing

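No fold change of the 10 genes that was called turned its sign under any alternative run. Between TG and WT kidneys after IRI, edgeR called 0 of the 10 genes, DESeq2 called 2, the fit with no count filter called 1, and leaving out each library gave 0 to 1 (1 without TG IRI replicate 1). In the interaction edgeR called 0 and DESeq2 1. Between females and males edgeR called 2 in TG kidneys, with 0 to 2 on leaving out each library. In WT kidneys it called 2, with 1 with no count filter, 1 with only the 2 groups in the fit, and 0 to 2 on leaving out each library. The cause was not tested for any of these.

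Over all genes the calls between TG and WT after IRI numbered 12 in edgeR, against 346 with DESeq2, 43 with no count filter, 5 with the replicate block and 22 with all 18 libraries in the fit (0 to 109 on leaving out each library). After NX they numbered 2, against 45 with DESeq2, 127 with no filter, 1 with the block, 0 with all 18 libraries and 2 to 15 on leaving out each. Without surgery they were 1 in males, against 14 with DESeq2 and 15 with no filter (1 to 2 on leaving out each), and 8 in females, against 206, 107, 40 with the block and 14 with halved counts (1 to 22). The interaction had 0 in edgeR and 36 with DESeq2. The replicate block left the counts of called members at 9 in TG and 10 in WT for IRI against NX, 0 in each TG against WT comparison and the interaction, and 2 in each sex comparison. In their deviations from group means, same-numbered libraries correlated by -0.0256 to 0.156 in the NX and IRI table and 0.0195 to 0.265 in the other. For differently numbered libraries the medians per pair of groups were -0.0529 to -0.0125 in the NX and IRI table. In the other they were -0.0724 to -0.0397. The numbers were not taken as pairs, and the results with the replicate block are those given above. Leaving out WT IRI replicate 1 together with WT NX replicate 0 was chosen after seeing the data, and 10 and 0 genes were then called in WT IRI against NX and in the interaction.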
